A study of Mus musculus with 4 samples.

Results

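Polycomb repressive complex 2 (PRC2) is described here by 10 subunit genes other than its Polycomb-like proteins: Ezh1, Ezh2, Eed, Suz12, Rbbp4, Rbbp7, Jarid2, Aebp2, Epop and Lcor. Every probe set that the platform annotation lists with exactly 1 of these symbols was taken, which gave 32 probe sets of 45037 tested, and all 10 genes of 18193 were represented. F9, the cell line used, is an established line of mouse embryonal carcinoma, and its total RNA was hybridised to 4 arrays of the type Affymetrix Mouse 430 2.0. The cells had been infected with pLKO.1 lentivirus and selected with puromycin, and they carried either a short hairpin RNA against Phf19 (shPhf19, 2 arrays) or the hairpin vector without it (shVector, 2 arrays). The labels call the arrays of a group biological replicates and the series' design speaks of 2 cell lines per group. The sources used here do not give the number of hairpins or of separate infections, so each p-value covers only the spread seen among 4 arrays, which may be technical.

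PRC2 methylates histone H3 at lysine 27 (H3K27), a mark of repressed developmental genes in pluripotent cells. Ezh1 and Ezh2 encode alternative catalytic subunits, which need Eed and Suz12 to be active, and Rbbp4 and Rbbp7 encode histone-binding proteins that also serve in other complexes. The core binds one of alternative sets of accessory proteins. Jarid2 and Aebp2 define one form, and the other form holds a Polycomb-like protein such as Phf19 together with Epop or a product of the Lcor locus. The comparison of shPhf19 with shVector therefore shows whether transcripts of the rest of the complex changed when one Polycomb-like gene was targeted.

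The targeted gene was lower by 1 of its 2 probe sets. Phf19 probe set 1427920_at read 6.07 and 6.14 on the log2 scale on the shVector arrays and 5.08 and 5.17 on the shPhf19 arrays, a change of -0.98 ± 0.10 (SE; limma adjusted p = 0.0108). Its other probe set, 1431857_at, did not pass (-0.06 ± 0.12). Array medians lay between 5.75 and 5.76. Phf19 1427920_at was above them on the shVector arrays and below them on the shPhf19 arrays. Values this dim may hold much background, so the size of its fall is uncertain. Markers of embryonal carcinoma cells were bright, with all 11 above the array median on every array and none passing the test. At an unadjusted p under 0.05 (limma), 3 of them were higher and 1 lower, against 7.73% and 7.35% of all genes. The lower one was Nanog, at -0.26 ± 0.05 (limma adjusted p = 0.0923). Fibroblast markers were dim, with 6 of 8 below the array median and none passing. Pdgfrb was at -0.68 ± 0.14 and Thy1 at 0.46 ± 0.12, both at an unadjusted p under 0.05 (limma).

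Among the PRC2 subunit genes the 1 transcript that passed the test was that of Jarid2, by 1 of its 3 probe sets and with a rise of 1.21-fold. Of the 32 probe sets, 1 rose, none fell and 31 did not pass (limma, Benjamini-Hochberg adjusted p under 0.05 over all 45037 probe sets). Over all probe sets 1.41% were called, 0.830% as higher and 0.582% as lower, so 1 in 32 is near the background. With each gene represented by its brightest probe set, 0 of 10 genes passed, against 2.02% of 18193 genes. At an unadjusted p under 0.05 (limma), 3 of the 10 genes were higher and none lower, against 7.73% and 7.35% of all genes. These were Jarid2, Aebp2 and Suz12. The median change of the 32 probe sets was 0.07, against -0.01 for all probe sets, and the changes ran from -0.24 to 0.35 on the log2 scale.

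**Figure D1:**
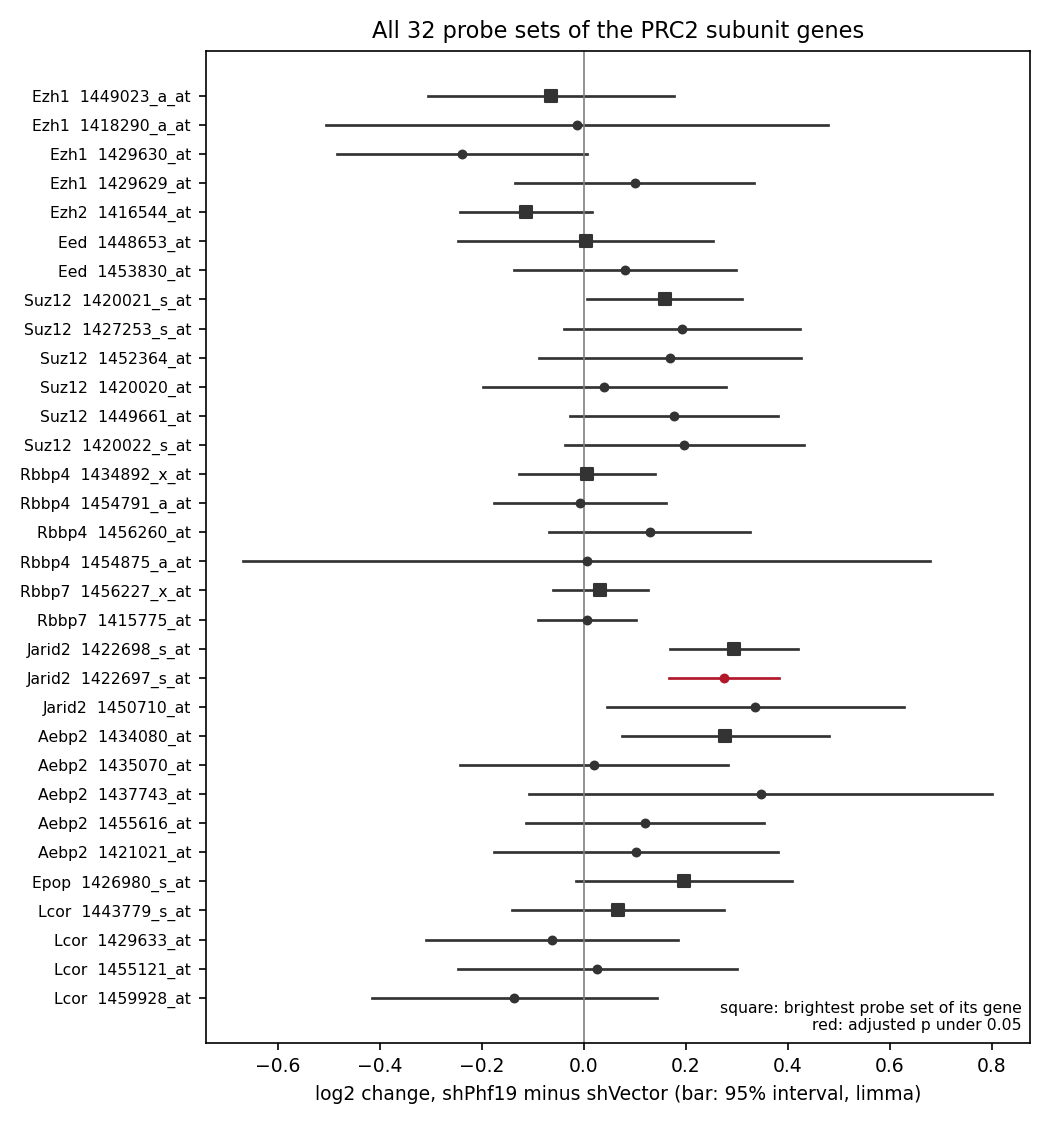
Log2 change (shPhf19 minus shVector, x axis) of all 32 probe sets with limma's 95% intervals, grouped by gene on the y axis; squares mark the brightest probe set of a gene and red the 1 probe set that passed. The 3 Jarid2 intervals lie above 0, the Rbbp7 intervals are the narrowest and that of Rbbp4 1454875_a_at is the widest.

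The catalytic subunit gene Ezh2 was represented by a single bright probe set. It read 11.43 and 11.47 on the shVector arrays and 11.36 and 11.32 on the shPhf19 arrays. Both shPhf19 arrays were lower, by a small margin: the change was -0.11 ± 0.05 (SE; limma adjusted p = 0.47), or 92.5% of control (95% interval 84.5% to 101%). The interval ends at 84.5% of control on the side of a fall, on a scale that probe set summaries can compress. Both shPhf19 arrays lay below both shVector arrays in 21.0% of all probe sets, so this separation is common.

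Ezh1, the paralog with the lower methyltransferase activity, had 4 probe sets, and none passed. The brightest, 1449023_a_at, read 8.75 and 8.51 in shVector and 8.54 and 8.60 in shPhf19. The groups overlapped and the change was -0.06 ± 0.10, with a 95% interval of -0.30 to 0.18. The second, 1418290_a_at, spread more between the shVector arrays (5.84 and 5.23) than between group means (change -0.01 ± 0.20). It lay below the array median, as did the remaining pair, at -0.24 ± 0.10 for 1429630_at and 0.10 ± 0.10 for 1429629_at. Dim probe sets may hold little but background, since the deposited table has no detection calls. The difference between Ezh2 and Ezh1 within an array changed by -0.05 between groups (exact permutation test, two-sided p = 1). With 2 arrays against 2 the exact permutation test cannot go below p = 0.333.

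Eed, the subunit that reads trimethylated H3K27, was measured at 11.60 and 11.92 in shVector and at 11.80 and 11.72 in shPhf19 by its bright probe set 1448653_at. The shVector arrays enclosed both shPhf19 arrays. The change was 0.00 ± 0.10, with an interval of -0.25 to 0.25. Its other probe set, 1453830_at, was below the array median, and read 3.80 and 3.84 in shVector and 3.93 and 3.87 in shPhf19 (change 0.08 ± 0.09).

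Suz12, the scaffold on which accessory proteins assemble, was above 0 in all 6 of its probe sets, and none of them passed. The brightest, 1420021_s_at, read 11.89 and 11.79 in shVector and 12.05 and 11.95 in shPhf19. The groups did not overlap, and the change was 0.16 ± 0.06 (SE; limma adjusted p = 0.372), with a 95% interval of 0.01 to 0.31. The other probe sets ran from 0.04 ± 0.10 for 1420020_at to 0.20 ± 0.10 for 1420022_s_at. In 1427253_s_at the 4 arrays read 11.20 and 11.28 in shVector and 11.57 and 11.29 in shPhf19, so 1 shPhf19 array stood high and the other was barely above the controls. Without shPhf19 replicate 1 that change fell from 0.19 to 0.05, and that of 1452364_at from 0.17 to 0.02.

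Promoter sequence gives these genes some context. RefSeq promoters (GRCm38.p6, 250 bases before to 50 after a start) matched 9 of the 10 genes, in 12 entries. Each of the 9 genes had an entry with more CpG dinucleotides than the median of 7 over 32851 promoters, from 17 in Eed to 49 in Lcor. Of the 12 entries, 10 exceeded that median, and the others, both of Aebp2, held 4 each. Ezh2 and Eed are textbook targets of E2F factors, which drive genes of proliferating cells, so an E2F-type core, TTNNCGC with C or G at each N, was searched on both strands, overlapping matches included. It occurred in 9.57% of all promoters. The core itself contains a CG, so that share is no matched reference for windows rich in CpG. Among the subunit genes Ezh2, Suz12, Rbbp4 and Aebp2 held a match in 1 entry each, and Eed held none. A match is a description of the letters and not evidence of binding. The promoters of Ezh2 (chr6:47594981-47595280, minus strand) and Suz12 (chr11:79992856-79993155, plus strand) are shown as the catalytic and scaffold genes whose windows carry the core, in capitals.
Ezh2 promoter: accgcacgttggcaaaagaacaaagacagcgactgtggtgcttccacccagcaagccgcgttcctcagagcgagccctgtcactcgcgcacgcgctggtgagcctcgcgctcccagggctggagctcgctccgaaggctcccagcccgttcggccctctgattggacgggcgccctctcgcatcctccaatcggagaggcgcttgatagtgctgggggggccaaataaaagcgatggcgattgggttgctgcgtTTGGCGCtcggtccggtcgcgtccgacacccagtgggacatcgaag
Suz12 promoter: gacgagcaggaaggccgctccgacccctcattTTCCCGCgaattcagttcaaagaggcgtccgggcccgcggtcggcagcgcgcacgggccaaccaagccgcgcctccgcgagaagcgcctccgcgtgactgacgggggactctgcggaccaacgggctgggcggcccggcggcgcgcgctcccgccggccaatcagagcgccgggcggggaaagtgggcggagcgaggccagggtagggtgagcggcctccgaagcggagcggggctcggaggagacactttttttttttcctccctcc

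The histone-binding genes Rbbp4 and Rbbp7 had bright probe sets, and those of Rbbp7 differed little between replicates. Rbbp7 probe set 1456227_x_at read 13.73 and 13.71 in shVector and 13.73 and 13.78 in shPhf19, and 1415775_at lay between 13.31 and 13.34 on all 4 arrays. Their changes were 0.03 ± 0.04 and 0.01 ± 0.04. The interval of 1415775_at ran from 94.0% to 107% of control. Rbbp4 gave 0.01 ± 0.06 by 1434892_x_at, with 13.35 and 13.22 in shVector and 13.26 and 13.32 in shPhf19, and the groups overlapped. At signals this high the response of an array can flatten, and saturation was not tested here.

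Rbbp4 probe set 1454791_a_at was at -0.01 ± 0.07. The dimmer 1456260_at read 8.72 and 8.59 in shVector and 8.76 and 8.81 in shPhf19. Its groups did not overlap, and the change was 0.13 ± 0.08 (limma adjusted p = 0.612). The remaining Rbbp4 probe set, 1454875_a_at, was the least even of the 32. It read 7.85 and 8.72 in shVector and 8.51 and 8.07 in shPhf19. The gap of 0.87 between the control arrays far exceeded the change of 0.01 ± 0.28, whose interval ran from -0.67 to 0.68. Without shVector replicate 1 the change was -0.43 and without shVector replicate 2 it was 0.44, so its sign depended on which control array was used. The Rbbp4 to Rbbp7 difference within an array changed by -0.03 (exact permutation test, two-sided p = 1).

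**Figure D2:**
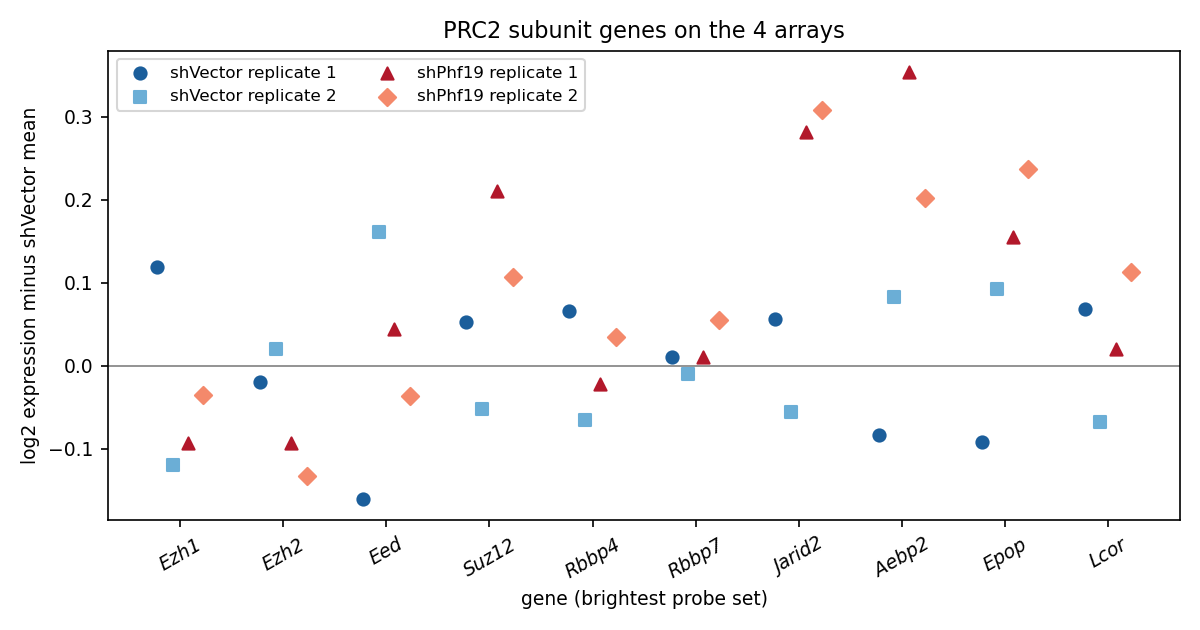
Log2 expression of the brightest probe set of each of the 10 genes on the 4 arrays (y axis, relative to the shVector mean of that probe set; symbols mark the arrays). For Jarid2, Aebp2, Epop, Suz12 and, barely, Rbbp7 both shPhf19 arrays lie above both shVector arrays, and for Ezh2 both lie below. For Eed, Ezh1 and Rbbp4 the shVector arrays lie outside the shPhf19 arrays.

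Jarid2 encodes the accessory subunit that helps bring PRC2 to chromatin carrying ubiquitylated histone H2A and stimulates its activity. It was higher in shPhf19 cells by all 3 probe sets. Probe set 1422697_s_at read 12.47 and 12.47 in shVector and 12.73 and 12.76 in shPhf19. The control arrays coincided and both shPhf19 arrays lay above them, a rise of 0.28 ± 0.04 on the log2 scale (SE; limma adjusted p = 0.0467; 95% interval 0.17 to 0.38), or 1.21-fold.

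The brightest Jarid2 probe set, 1422698_s_at, read 12.87 and 12.76 in shVector and 13.10 and 13.12 in shPhf19. Its change was nearly the same, 0.30 ± 0.05, but it stood on the other side of the threshold (limma adjusted p = 0.0593). The third, 1450710_at, read 10.97 and 11.30 in shVector and 11.58 and 11.36 in shPhf19, and its change of 0.34 ± 0.12 did not pass (adjusted p = 0.317). It was 0.17 without shVector replicate 1 and 0.50 without shVector replicate 2. Its groups stayed apart by a margin smaller than the gap of 0.33 between the control arrays. Both probe sets nearest the threshold have the suffix _s_at, which marks possible hybridisation to related transcripts, and the one without it is the one with the larger spread.

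The Jarid2 call was lost without the intensity trend of the variance (limma adjusted p = 0.234), with the replicate number as a block (limma adjusted p = 0.388) and with crossed replicate numbers as a block, a choice made after seeing the data. It was also lost with any 1 array left out, when limma called 0 of all 45037 probe sets. With shVector replicate 1 or 2 left out, the adjusted p of 1422697_s_at was 0.164 or 0.217 (limma). With shPhf19 replicate 1 or 2 left out it was 0.827 or 0.739, while the change stayed between 0.26 and 0.29. Over all 11 alternatives for this probe set the adjusted p ran from 0.0257 to 0.827. Markers of extraembryonic endoderm, a lineage F9 cells can form, moved with the groups in part: 6 of 13 passed, all higher in shPhf19, against 2.02% of all genes in either direction. Another 4 lay below 0 without passing, among them Sox7 (-0.24 ± 0.11) and Sparc (-0.12 ± 0.06). The marker list was chosen with earlier results of these data known, so the share over all genes is no independent reference for it. The mean log2 level of the 13 was 6.59 to 6.63 in shVector and 7.25 to 7.26 in shPhf19, and their part in the Jarid2 result was not tested. In bulk RNA, a change in the share of cells and a change in RNA per cell cannot be told apart.

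The first of the 2 RefSeq promoters of Jarid2 (GRCm38.p6, chr13:44730524-44730823, plus strand) is shown because Jarid2 is the 1 gene with a passing probe set. Its 24 CpG dinucleotides, in capitals, are more than in 80.0% of all promoters, and the E2F-type core was not found in this window.
Jarid2 promoter: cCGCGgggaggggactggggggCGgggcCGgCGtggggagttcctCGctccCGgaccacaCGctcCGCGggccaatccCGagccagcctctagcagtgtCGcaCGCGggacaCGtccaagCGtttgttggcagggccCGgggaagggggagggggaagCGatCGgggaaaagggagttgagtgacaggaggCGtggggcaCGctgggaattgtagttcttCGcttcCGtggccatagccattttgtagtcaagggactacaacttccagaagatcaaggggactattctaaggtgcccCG

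Aebp2, the zinc finger partner of Jarid2 in the same form of the complex, was above 0 in all 5 probe sets without passing. The brightest, 1434080_at, read 10.45 and 10.62 in shVector and 10.89 and 10.74 in shPhf19. The groups did not overlap, and the change was 0.28 ± 0.08 (SE; limma adjusted p = 0.237; 95% interval 0.07 to 0.48). The largest change among the 32 probe sets was that of Aebp2 1437743_at, 0.35 ± 0.19, at 8.11 and 8.63 in shVector and 8.89 and 8.54 in shPhf19. Here the groups overlapped, and without shVector replicate 1 the change was 0.08. The other Aebp2 probe sets lay at 0.02 ± 0.11, 0.12 ± 0.10 and 0.10 ± 0.12, so the probe sets of this gene differed by up to 0.33.

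**Figure D3:**
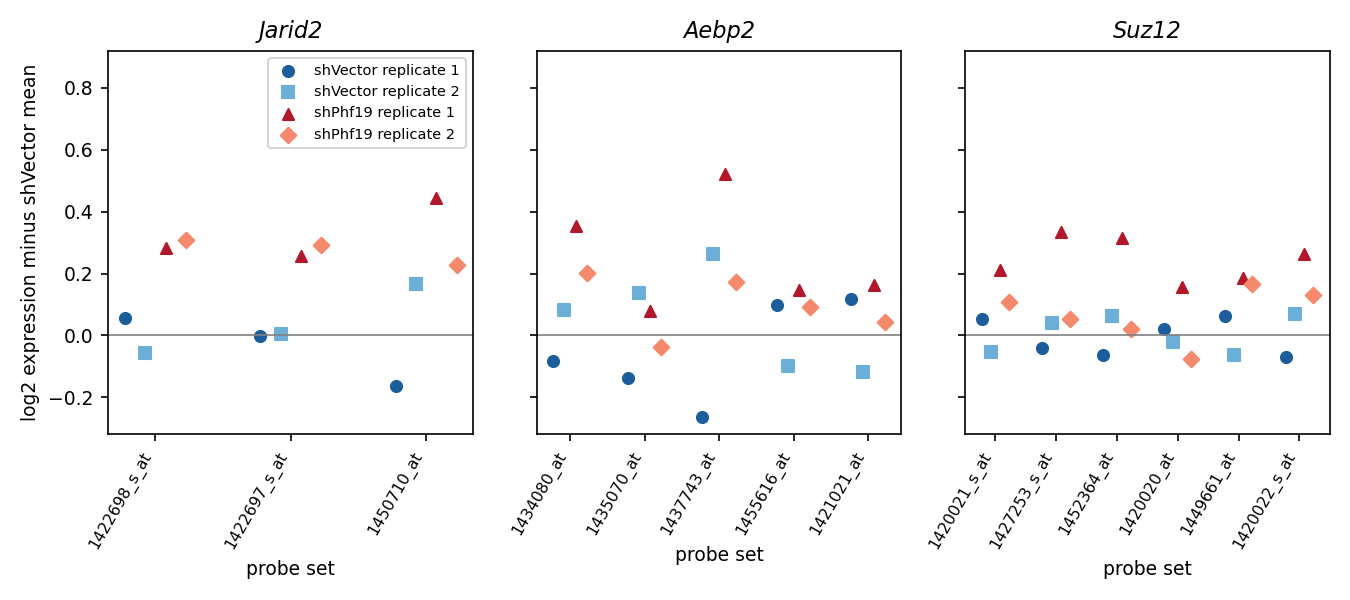
Log2 expression of every probe set of Jarid2, Aebp2 and Suz12 on the 4 arrays (y axis, relative to the shVector mean of each probe set; symbols mark the arrays). The Jarid2 arrays separate by group in all 3 probe sets, whereas shPhf19 replicate 1 stands highest in several Aebp2 and Suz12 probe sets.

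Epop, the elongin-binding accessory protein abundant in pluripotent cells, had 1 probe set, 1426980_s_at. It read 9.14 and 9.33 in shVector and 9.39 and 9.47 in shPhf19. The groups did not overlap, but the change of 0.20 ± 0.09 did not pass (limma adjusted p = 0.435), with an interval of -0.02 to 0.41. Without shVector replicate 1 it was 0.10, and without shVector replicate 2 it was 0.29. The Lcor locus encodes a ligand-dependent corepressor and, from a longer transcript, a PRC2 accessory protein; which of these the probe sets read was not analysed here. The brightest Lcor probe set, 1443779_s_at, read 8.63 and 8.50 in shVector and 8.58 and 8.68 in shPhf19, a change of 0.07 ± 0.09. The other 3 ran from -0.14 to 0.03, and the groups overlapped in all 4. Averaged over Jarid2 and Aebp2 minus Epop and Lcor, the within-array difference was 2.78 on both shVector arrays and 3.01 and 2.86 in shPhf19. That change of 0.16 gave p = 0.333 (exact permutation test, two-sided), the smallest p possible with these arrays. Any groups of 2 and 2 arrays that do not overlap give this p, so it adds nothing to the values listed. In single probe sets, both shPhf19 arrays lay above both shVector arrays in 19.4% of all. The change of 0.16 became 0.08 without shPhf19 replicate 1 and 0.23 without shPhf19 replicate 2.

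**Figure D4:**
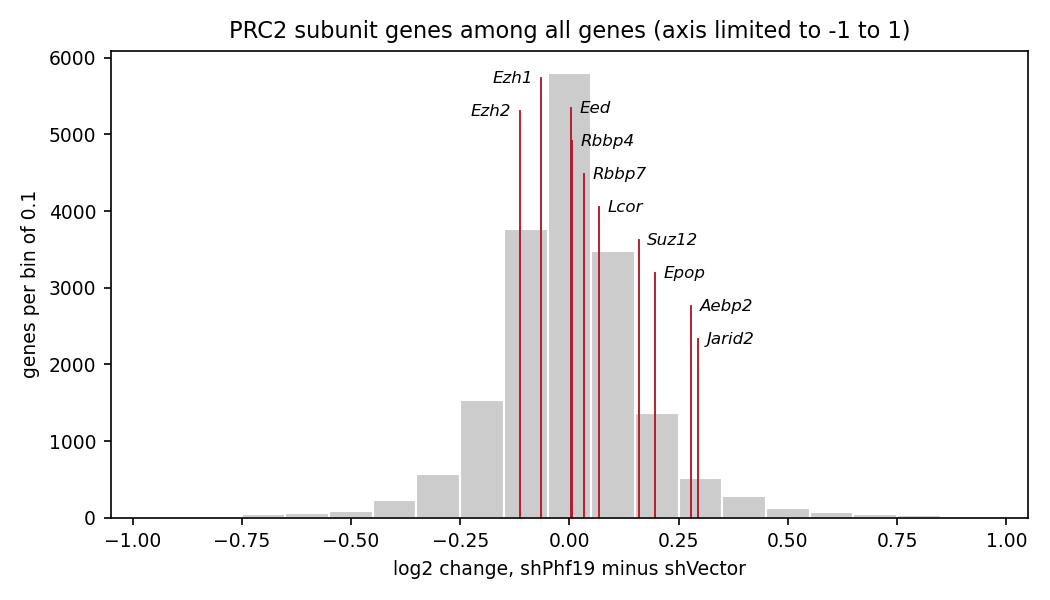
Histogram of the log2 change of all genes by their brightest probe sets (grey, bins of 0.1, x axis limited to between -1 and 1), with the 10 subunit genes as red lines whose heights only separate the labels. The 10 genes lie between -0.11 (Ezh2) and 0.30 (Jarid2).

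The order of the replicate arrays is described here over the 32 probe sets. shVector replicate 1 was the lowest of the 4 arrays in 16 of the 32 probe sets (against 22.6% of all probe sets), and shPhf19 replicate 1 the highest in 14 (43.8%, against 22.1%). Most of these 14 belonged to Suz12 and Aebp2, and probe sets of the same gene are not independent. Both counts also include the difference between groups, since both shPhf19 arrays lay above both shVector arrays in 12 of the 32. In 23 of the 32 the replicate 1 minus replicate 2 difference had opposite signs in the 2 groups (71.9%, against 57.4% of all probe sets). As a description over 32 probe sets that share the 4 arrays, those differences correlated at -0.688. Beta-actin, whose 3' to 5' signal ratio reports on RNA integrity, had its highest ratio on shVector replicate 1 (log2 difference 1.16, against 0.834 to 1.03 on the other arrays). Its part in these values was not tested.

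**Figure D5:**
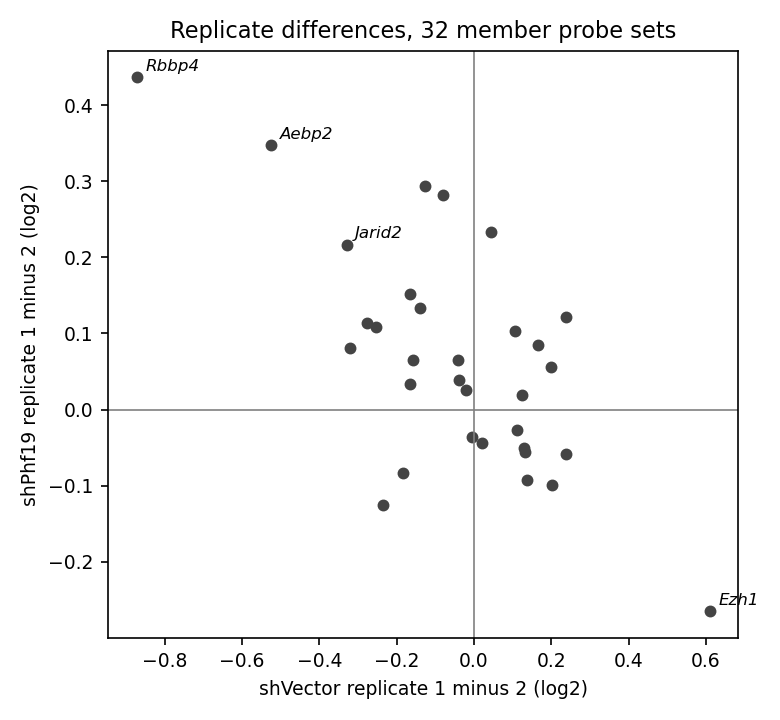
Replicate 1 minus replicate 2 in shVector (x axis, log2) against the same difference in shPhf19 (y axis, log2) for the 32 probe sets. Rbbp4 1454875_a_at at the upper left and Ezh1 1418290_a_at at the lower right have the largest differences between the shVector arrays.

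Groups that did not overlap were no rarity in these data. In 12 of the 32 probe sets both shPhf19 arrays lay above both shVector arrays and in 2 they lay below, against 19.4% and 21.0% of all probe sets. Of the 12, 3 belonged to Jarid2, 4 to Suz12 and 1 each to Eed, Rbbp4, Rbbp7, Aebp2 and Epop. The 95% interval of the change lay within 0.5 on the log2 scale, in both directions, for 28 of the 32 probe sets and for all 10 brightest ones. Over all features this held for 38661 of 45037 probe sets and 15814 of 18193 genes, so 28 of 32 is near the background.

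Other genes of the H3K27 pathway gave no call by their brightest probe sets. Of 11 (Polycomb-like genes, the Lcor relative Lcorl, the PRC2 inhibitor gene Ezhip, H3K27 demethylases with their relative Uty, and partners of Epop), 0 passed with limma and 0 had an unadjusted p under 0.05 by these probe sets. The median change was 0.03. The Phf19 probe set that fell, given above, is not the brightest of its gene. Lcorl, which encodes a PRC2 accessory protein related to that of Lcor, read 6.53 and 6.79 in shVector and 6.91 and 6.93 in shPhf19 (change 0.26 ± 0.11, limma adjusted p = 0.408). A dimmer Lcorl probe set, 1455686_at, read 6.14 and 6.20 in shVector and 6.72 and 6.55 in shPhf19, and its larger change of 0.46 ± 0.10 did not pass (limma adjusted p = 0.107). Usp7, a deubiquitinase gene, was at 0.11 ± 0.05 by its brightest probe set and at -0.34 ± 0.10 by the dim 1437118_at (limma adjusted p = 0.224), the demethylase gene Kdm6a at -0.10 ± 0.07 and the Polycomb-like gene Mtf2 at -0.07 ± 0.07.

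Rbbp4 and Rbbp7 also belong to the deacetylase complexes NuRD and Sin3, to the remodeller NURF and to histone acetylation and assembly complexes. Of 19 measured genes of those complexes (Chaf1a was not analysed here), 1 rose and 18 did not pass, with a median change of 0.01. As 2.02% of all genes were called, 1 of 19 is near the background. The rise was that of Smarca1, a remodelling ATPase gene of NURF. It read 8.30 and 8.40 in shVector and 9.09 and 8.98 in shPhf19, a change of 0.69 ± 0.08 (SE; limma adjusted p = 0.0185). Without any 1 array the change lay between 0.63 and 0.74. Chd3, a NuRD remodeller gene, was at 0.31 ± 0.10 without passing, the corepressor gene Sin3b at -0.15 ± 0.06 and the methyl-CpG binding gene Mbd2 at -0.16 ± 0.08.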

How the data were processed

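The authors deposited 1 value per probe set and array for the 4 arrays, taken here as log2 expression: values ran from 2.31 to 14.7, and natural logs of a 16-bit scanner end at 11.1. Array medians nearly coincided, so the deposited log2 values were taken here as already normalized between arrays. No source used here names the normalization, the software or the background correction. Probe set summaries can compress changes.

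After 64 control probe sets were left out of 45101, 45037 were tested at all levels. In GEO's platform annotation 34945 had 1 gene symbol, 932 several and 9160 none. A gene's representative was its brightest single-gene probe set, over 18193 genes. The test was limma 3.58.1 in R 4.3.3 (lmFit and eBayes, trend on intensity; two-sided), for shPhf19 minus shVector. In the main analysis p-values were adjusted by Benjamini-Hochberg across the 45037 probe sets, with calls at 0.05. Alternatives that removed probe sets or averaged them per gene had fewer rows to adjust over, which by itself can lower an adjusted p. Residual degrees of freedom were 2 before and 6.51 (median) after variance moderation. SE is the moderated standard error, and precision is limited by the number of arrays. The script was checked on simulated data. Every probe set of the 10 genes could be named, with Phf19, and in each other list the passing genes filled up to 4 by smallest p. The genes and lists were chosen with earlier results of these data known.

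Alternatives were quantile normalization, median centring, no intensity trend, robust eBayes, removal of the lowest 25% or 50% of probe sets or of those named _s_at or _x_at, the mean of probe sets, a replicate block, and each array left out.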

Additional observations from a re-analysis of the deposited data

How the results depend on the processing

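The number of called PRC2 subunit probe sets was 1 in the main analysis. It was 2 with quantile normalization, median centring and both filters on dim probe sets, where Jarid2 1422698_s_at joined (adjusted p = 0.0375, 0.044, 0.0451 and 0.0346, limma), so that 1 of the 10 genes passed. It was 0 without an intensity trend, without _s_at and _x_at probe sets, which removes both Jarid2 probe sets near the threshold, with the replicate block, with the crossed replicate block and, from 0 to 0, with any 1 array left out. With the mean of probe sets 1 of the 10 genes passed, Jarid2 (0.30 ± 0.05, limma adjusted p = 0.0299), and in the H3K27 list 1 passed, Phf19 (-0.52 ± 0.08).

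Over all probe sets 636 were called, 380 without an intensity trend, 0 with any 1 array left out (2539 to 6942 at an unadjusted p under 0.05) and 0 with the replicate block (3890 at an unadjusted p under 0.05, limma). Same-numbered arrays deviated at a correlation of -0.197 over all probe sets, and nothing in the labels pairs them. A crossed replicate block, chosen after seeing the data, called 596. The count in the list of other Rbbp4 and Rbbp7 complexes was 1, and 0 with the replicate block or, from 0 to 0, with any 1 array left out.

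Of 366 recomputed changes of the 32 probe sets, 343 kept their direction. Many of these could not reverse. The change itself stays the same without the intensity trend, with robust eBayes, after removal of probe sets and with the replicate block. Only quantile normalization, median centring and leaving out an array could turn it. With quantile normalization Eed 1448653_at moved to -0.0041 and Rbbp4 1434892_x_at to -0.0019, both near 0. The other 21 reversals came from leaving out an array, over these ranges: Ezh1 1449023_a_at -0.18 to 0.06 and 1418290_a_at -0.32 to 0.29; Eed 1448653_at -0.16 to 0.16; Suz12 1420020_at -0.08 to 0.16; Rbbp4 1434892_x_at -0.06 to 0.07, 1454791_a_at -0.09 to 0.07 and 1454875_a_at -0.43 to 0.44. Further ranges were -0.01 to 0.02 for Rbbp7 1415775_at, -0.12 to 0.16 for Aebp2 1435070_at, -0.02 to 0.22 for Aebp2 1421021_at, -0.0011 to 0.13 for Lcor 1443779_s_at, -0.16 to 0.04 for Lcor 1429633_at and -0.10 to 0.15 for Lcor 1455121_at. None of these was called in any alternative. The within-array difference of Ezh2 and Ezh1 ran from -0.19 to 0.09 and that of Rbbp4 and Rbbp7 from -0.08 to 0.03 without 1 array; the latter was 0.01 with the mean of probe sets. The causes were not tested.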
